A study of Mus musculus with 28 samples.

Results

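The genes described here encode the proteins of the mitochondrial ribosome. They were chosen by name, as all probe sets of the array whose only gene symbol reads Mrpl or Mrps followed by a number, and each gene was read at the probe set with the highest mean over all 28 arrays. This gave 73 genes, hereafter the members, from 129 probe sets, out of 17097 genes and 45037 probe sets tested. Of the members, 46 belong to the large subunit (Mrpl) and 27 to the small subunit (Mrps), and 35 had 1 probe set while 38 had more. No filter on low values was used, so that all 73 were tested. A further 6 probe sets that name Mrps6 or Mrps25 together with another gene were left out.

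The arrays held RNA of primary mouse embryonic fibroblasts (MEFs) at passage 2, taken from 13.5-day-old embryos of wild type (WT) mice, of p66-/- mice, which lack the longest product of the Shc1 gene, and of p53-/- mice. For each genotype there were 4 untreated arrays and 4 arrays after exposure to 400 μM H2O2. WT and p66-/- MEFs also gave 2 arrays each of cells exposed to 0.25 μg/ml of doxorubicin (Doxo), a drug that binds DNA and traps topoisomerase II, and no Doxo arrays of p53-/- MEFs were analysed here. The labels give each exposure as 4 h and the strain as C57Bl/6, while the study's methods name sv129. The deletions are carried by all cells of a line, and the study describes the arrays of a group as independent RNA preparations.

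Mitochondria keep a small genome that encodes core subunits of the respiratory chain and of ATP synthase, and they translate these messages on ribosomes of their own. All proteins of these ribosomes are encoded in the nucleus, made in the cytosol and imported. Many descend from the proteins of bacterial ribosomes and kept their numbers, whereas others were added in the course of mitochondrial evolution and have no bacterial counterpart. The genes are expressed in most cell types, fibroblasts included, and they are usually studied as a group together with the factors that assemble the ribosome, charge its tRNAs and make its messages.

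Values are deposited RMA values on the log2 scale, on which a difference of 1 is a doubling. A member is said to rise or fall where the limma test, fitted over all 45037 probe sets and 8 groups, gave a Benjamini-Hochberg adjusted p under 0.05. The array medians lay between 4.352 and 4.464. Fibroblast markers were all measured, with 5 of 10 above 8 on the log2 scale. None of the 16 measured markers of epithelial, endothelial, blood, muscle and neural cells exceeded 6.571. The ranges overlapped, since the fibroblast markers Col1a2, Pdgfra and Lum read 5.101, 5.638 and 6.292. The deleted genes did not check the genotypes, since no probe set carried the single symbol Trp53 and Shc1 also makes shorter products. The treatment labels of the p53-/- arrays went against stress genes. Atf3, a transcription factor of stress responses, read 5.624 to 5.986 in untreated WT MEFs and 8.3 to 9.134 after H2O2, but 8.537 to 9.394 in the libraries labelled untreated p53-/- and 5.569 to 6.301 in those labelled H2O2. Gadd45a, a growth arrest gene, was ordered in the same way. Responses of p53-/- MEFs are therefore given by the labels and also with the labels exchanged.

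The members as a group sat at different levels on different sets of arrays. Their median, taken after subtracting the median of each array, was 4.445, 4.192, 4.725 and 4.764 in untreated WT replicates 1 to 4 and 4.039, 3.948, 4.954 and 4.58 after H2O2. In p66-/- MEFs it was 4.195, 4.006, 4.847 and 4.758 untreated and 4.214, 3.805, 4.616 and 4.629 after H2O2. The arrays labelled p53-/- gave 4.401, 4.304, 4.759 and 4.87 untreated and 4.485, 4.483, 4.81 and 4.707 after H2O2. Replicates 3 and 4 thus lay above replicates 1 and 2 in each of these 6 groups, with no overlap between the 2 sets over all of them. The sets averaged 4.21 ± 0.225 (SD, n = 12 arrays, range 3.805 to 4.485) and 4.752 ± 0.11 (SD, n = 12 arrays, range 4.58 to 4.954). The Doxo arrays read 4.955 and 5.054 in WT and 5.06 and 4.95 in p66-/- MEFs and averaged 5.005 ± 0.06 (SD, n = 4 arrays), with 3 of them above every other array and 1 just below WT H2O2 replicate 3.

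**Figure D1:**
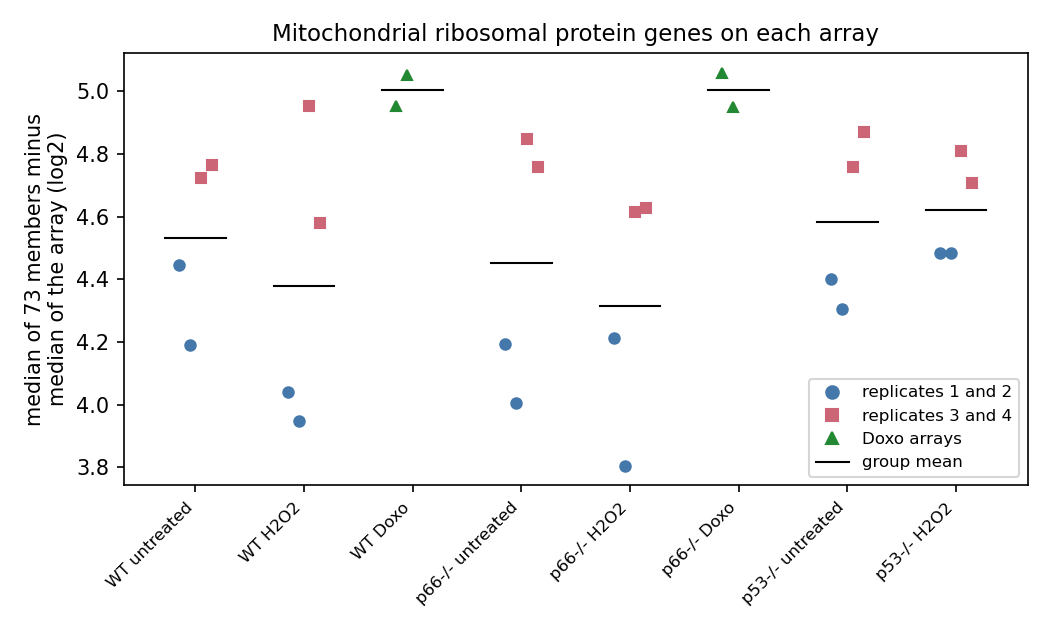
Median log2 value of the 73 mitochondrial ribosomal protein genes minus the median of the array (vertical axis), 1 point per array, for the 8 groups (horizontal axis). Circles are replicates 1 and 2, squares replicates 3 and 4, triangles Doxo arrays and black lines group means. Squares lie above circles in the 6 untreated and H2O2 groups, and the Doxo arrays, at 4.95 to 5.06, lie in the upper part of the range.

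The same split was seen in a spike-in control, an RNA added to every sample. The control lys averaged 6.661 ± 0.264 in replicates 1 and 2, 4.546 ± 0.483 in replicates 3 and 4 and 5.555 ± 0.125 in the Doxo arrays (log2 values, SD, n = 12, 12 and 4). Another control, bioB, averaged 6.753 ± 0.354, 7.303 ± 0.151 and 7.971 ± 0.137 in these sets, the same order as the members' level. Whether the members' level follows the controls was not tested. What the sets stand for is not given in the labels. With group as a term in the fit, 67 of the 73 members were higher in replicates 3 and 4 than in replicates 1 and 2 and none was lower, against 23.8% of all probe sets higher and 16.1% lower. The median difference of the members was 0.461, and that of all probe sets 0.037. The largest was 0.98 for Mrps12 (standard error 0.14), which encodes a protein of the decoding site. The 6 members that did not pass were Mrpl1, Mrpl32, Mrpl42, Mrpl50, Mrps9 and Mrps33, with differences between -0.11 and 0.14. The 2 sets hold the H2O2 and untreated groups in equal number, so that they widen the spread in those comparisons without favouring a group. The Doxo arrays form a set of their own, for which Doxo and the set cannot be told apart. Doxo results of the members are therefore given against all untreated arrays and also against untreated replicates 3 and 4 alone, the set nearer in the members' level, and those of other gene lists as counts or medians. Arrays of cell populations also cannot tell fewer cells with a transcript from less of it in each cell.

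After Doxo, most members were higher and a few were much lower. In WT MEFs 28 of the 73 members rose and 4 fell, where 21.9% of all probe sets rose and 13.0% fell. The p66-/- counts were 39 and 5, where 26.6% of all probe sets rose and 14.1% fell. The median change of the members was 0.607 in WT MEFs (quartiles 0.296 and 0.840) and 0.682 in p66-/- MEFs (quartiles 0.298 and 0.927). All probe sets had medians of 0.134 and 0.152. All 28 members that rose in WT MEFs also rose in p66-/- MEFs, which had untreated arrays of their own, and the same 4 fell in both. Set against untreated replicates 3 and 4 alone, 39 rose and 6 fell in WT MEFs (19.1% and 16.0% of all probe sets), with a median of 0.396 against 0.134 for all probe sets. Against untreated replicates 1 and 2 alone 55 rose and 4 fell in WT MEFs (21.2% and 13.7% of all probe sets) and 58 rose and 3 fell in p66-/- MEFs (30.6% and 16.5%). Against untreated replicates 3 and 4 alone 35 rose and 7 fell in p66-/- MEFs (16.1% and 14.6% of all probe sets). The median there was 0.346, against 0.121 for all probe sets. In WT MEFs both Doxo arrays lay above all 4 untreated arrays at 58 members and below them at 6, and in p66-/- MEFs at 51 and 5, while 39.2% of all probe sets lay above in either genotype and 19.5% and 18.8% lay below. An exact permutation test of 2 arrays against 4 cannot give a p under 0.067. With the replicate block 61 members rose and 4 fell in WT MEFs (33.3% and 17.9% of all probe sets). In p66-/- MEFs 62 rose and 4 fell (36.7% and 18.9%). The numbers do not pair the Doxo arrays, and the block fits them with replicates 1 and 2, where most members read lower. It thereby raises the Doxo differences of those members, so that these counts carry the difference between the array sets. Single arrays carried much of the count of calls. Without untreated replicate 2 the members called in WT MEFs were 20, and without untreated replicate 1 those called in p66-/- MEFs were 29. The counts fell further without either Doxo array of a genotype, which leaves 1 array in the group. No share of all probe sets is given for these fits, so that the loss cannot be read as particular to the members.

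**Figure D2:**
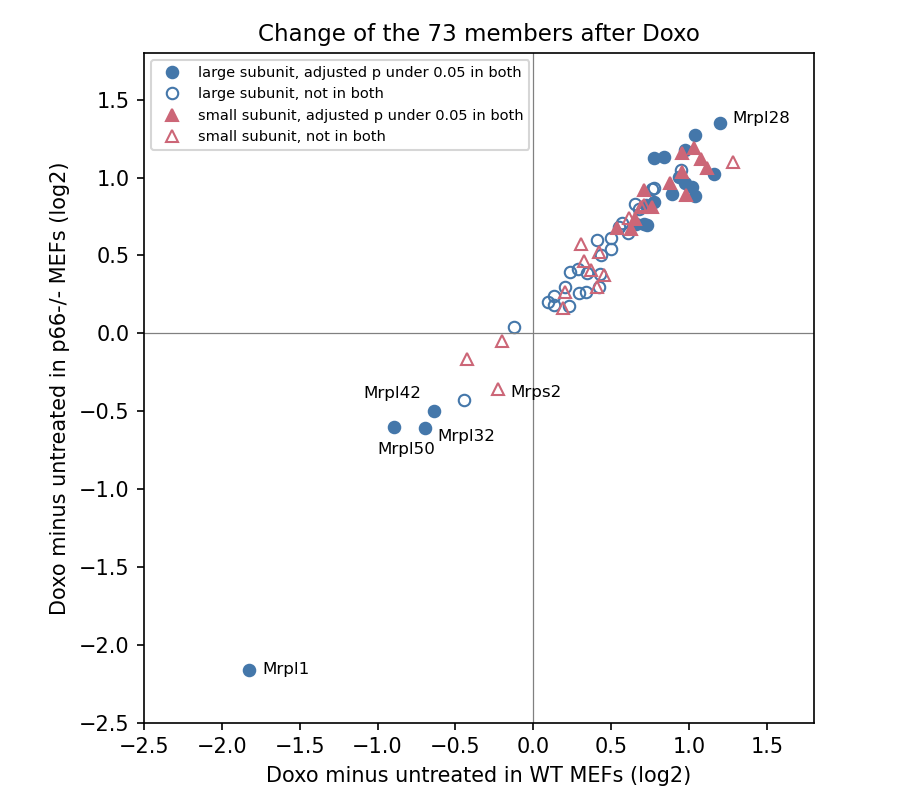
Log2 difference between Doxo and untreated cells of each of the 73 members, in WT MEFs (horizontal axis) and p66-/- MEFs (vertical axis). Circles are large subunit and triangles small subunit genes, and filled symbols passed an adjusted p under 0.05 in both genotypes. Most members lie between 0 and 1.35 in both, and Mrpl1 lies apart at -1.82 and -2.16.

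Mrpl28, the homologue of a bacterial large subunit protein, had the largest rise among the members called in either genotype. It read 8.55, 8.39, 8.92 and 8.96 in untreated WT MEFs and 9.81 and 9.996 after Doxo, and 8.10, 8.20, 9.04 and 9.08 in untreated p66-/- MEFs and 10.06 and 9.86 after Doxo. Every Doxo array was above every untreated array, and the gap to replicates 3 and 4 was smaller than that to replicates 1 and 2. The other probe set of Mrpl28 rose by less, 0.573 in WT (limma adjusted p = 0.025) and 0.569 in p66-/- MEFs (adjusted p = 0.0227). At the chosen probe set the change was 1.198 in WT (standard error 0.30, limma adjusted p = 0.00454) and 1.35 in p66-/- MEFs (standard error 0.30, adjusted p = 0.00151). Against untreated replicates 3 and 4 it was 0.96 and 0.90, and without WT Doxo replicate 2 the WT change of 1.11 did not pass (adjusted p = 0.0631).

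Mrpl14, a large subunit protein to which the assembly factor Malsu1 binds, read 8.30, 8.31, 8.52 and 8.67 in untreated WT MEFs and 9.36 and 9.62 after Doxo. The p66-/- arrays read 7.90, 8.07, 8.81 and 8.62 untreated and 9.65 and 9.60 after Doxo. Its changes were 1.04 (adjusted p = 0.00725) and 1.275 (adjusted p = 0.00132), or 0.89 and 0.91 against replicates 3 and 4. Mrps24, the counterpart of a bacterial protein at the site where the messenger enters the small subunit, read 9.17, 9.15, 9.28 and 9.35 in untreated WT MEFs and 10.244 and 10.465 after Doxo. Its change was 1.12 (adjusted p = 0.00462) in WT MEFs and 1.06 (adjusted p = 0.00559) in p66-/- MEFs, where the untreated arrays spread from 8.69 to 9.72 and the Doxo arrays read 10.345 and 10.136. Against untreated replicates 3 and 4 the changes of Mrps24 were 1.04 and 0.63, and without WT Doxo replicate 2 the WT change was 1.01 (adjusted p = 0.0695). Mrps11, of the platform of the small subunit, read 7.95, 7.67, 8.25 and 8.29 untreated and 8.92 and 9.22 after Doxo in WT MEFs. It read 7.52, 7.45, 8.43 and 8.30 untreated and 9.23 and 9.01 after Doxo in p66-/- MEFs. The changes of Mrps11 were 1.03 (adjusted p = 0.0105) and 1.19 (adjusted p = 0.00331), or 0.80 and 0.76 against replicates 3 and 4. Mrpl55, a mitochondria-specific protein of the large subunit, changed by 1.16 (adjusted p = 0.0219) in WT and 1.02 (adjusted p = 0.0361) in p66-/- MEFs. Its untreated WT arrays read 7.33 and 7.27 in replicates 1 and 2 and 7.99 and 7.98 in replicates 3 and 4, below 8.756 and 8.855 after Doxo. Against replicates 3 and 4 the changes of Mrpl55 were 0.82 and 0.60. The WT call of Mrpl55 was lost without any one of untreated replicates 1 and 2 and the Doxo arrays (adjusted p = 0.0529, 0.0547, 0.0793 and 0.133). Mrps12 had a still larger difference in WT MEFs, 1.28, but it did not pass (adjusted p = 0.06).

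The members that fell all belong to the large subunit in WT MEFs. Mrpl1, which forms the mobile stalk near the site where spent tRNAs leave the ribosome, stood apart from the rest. It read 6.64, 6.43, 6.61 and 6.74 in untreated WT MEFs and 4.93 and 4.63 after Doxo. Its p66-/- arrays read 6.67, 6.47, 6.49 and 6.73 untreated and 4.44 and 4.42 after Doxo. The 8 untreated arrays of both genotypes lay within 6.43 to 6.74, and replicates 3 and 4 did not differ from 1 and 2 for this gene beyond the spread (adjusted p = 0.314). Mrpl1 fell by 1.82 on the log2 scale in WT MEFs (standard error 0.17, adjusted p = 2.43e-07), and it fell by 2.16 in p66-/- MEFs (standard error 0.17, adjusted p = 4.14e-08). The difference between the genotypes did not pass (log2 difference of the responses -0.34, standard error 0.24, adjusted p = 1).

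Mrpl50, a mitochondria-specific protein of the large subunit, read 8.62, 8.47, 8.70 and 8.77 in untreated WT MEFs and 7.76 and 7.74 after Doxo. For p66-/- MEFs the values were 8.80, 8.33, 8.75 and 8.64 untreated, and 8.01 and 8.05 after Doxo. It fell by 0.89 in WT (adjusted p = 2.2e-05) and by 0.60 in p66-/- MEFs (adjusted p = 0.000979), with no overlap between treated and untreated arrays. Its other probe set fell further, by 2.88 (adjusted p = 3.5e-07) and 2.71 (adjusted p = 5.69e-07), from 6.791 to 7.084 in untreated WT arrays to 3.881 and 4.133 after Doxo. Mrpl32, a protein that is cut to its mature form by a protease of the inner mitochondrial membrane, read 9.60, 9.52, 9.55 and 9.58 in untreated WT MEFs and 9.06 and 8.68 after Doxo. The p66-/- arrays of Mrpl32 read 9.46, 9.41, 9.53 and 9.52 untreated and 8.97 and 8.78 after Doxo. It fell by 0.70 in WT (adjusted p = 2.02e-05) and by 0.61 in p66-/- MEFs (adjusted p = 7.12e-05). Mrpl42, a mitochondria-specific large subunit protein, read 9.48, 9.82, 9.78 and 9.69 untreated and 9.33 and 8.78 after Doxo in WT MEFs. It read 9.47, 9.40, 9.78 and 9.73 untreated and 9.24 and 8.95 after Doxo in p66-/- MEFs. Here 1 Doxo array of each genotype lay close to the lowest untreated array, and the falls were 0.64 (adjusted p = 0.00149) and 0.50 (adjusted p = 0.00755). Without the WT Doxo replicate 2 the WT fall of Mrpl42 was 0.36 and did not pass (adjusted p = 0.123), and without the p66-/- Doxo replicate 2 its p66-/- change was -0.35 (adjusted p = 0.15).

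Mrps2, a protein at the junction of head and body of the small subunit, fell in p66-/- MEFs only by the test, and its response did not differ between the genotypes (log2 difference -0.13, adjusted p = 1). It read 8.10, 8.07, 8.26 and 8.43 in untreated p66-/- MEFs and 8.002 and 7.712 after Doxo, a fall of 0.36 (adjusted p = 0.0387). In WT MEFs it read 8.16, 8.10, 8.18 and 8.27 untreated and 7.99 and 7.91 after Doxo, a difference of -0.23 (adjusted p = 0.19). Against replicates 3 and 4 the differences of Mrps2 were -0.28 in WT (adjusted p = 0.0798) and -0.49 in p66-/- MEFs (adjusted p = 0.00661). Against untreated replicates 3 and 4 alone, the 4 members that fell in both genotypes had changes of -1.89 and -2.18 for Mrpl1, -0.99 and -0.67 for Mrpl50, -0.70 and -0.66 for Mrpl32 and -0.68 and -0.66 for Mrpl42, in WT and p66-/- MEFs in this order. On the same basis Mrpl18, counterpart of a bacterial protein of the central protuberance, and Mrps22, a mitochondria-specific small subunit protein, also fell in both genotypes. The 2 genes were named after their values were seen. Mrpl18 fell by 0.65 and 0.73, and Mrps22 by 0.60 and 0.40.

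**Figure D3:**
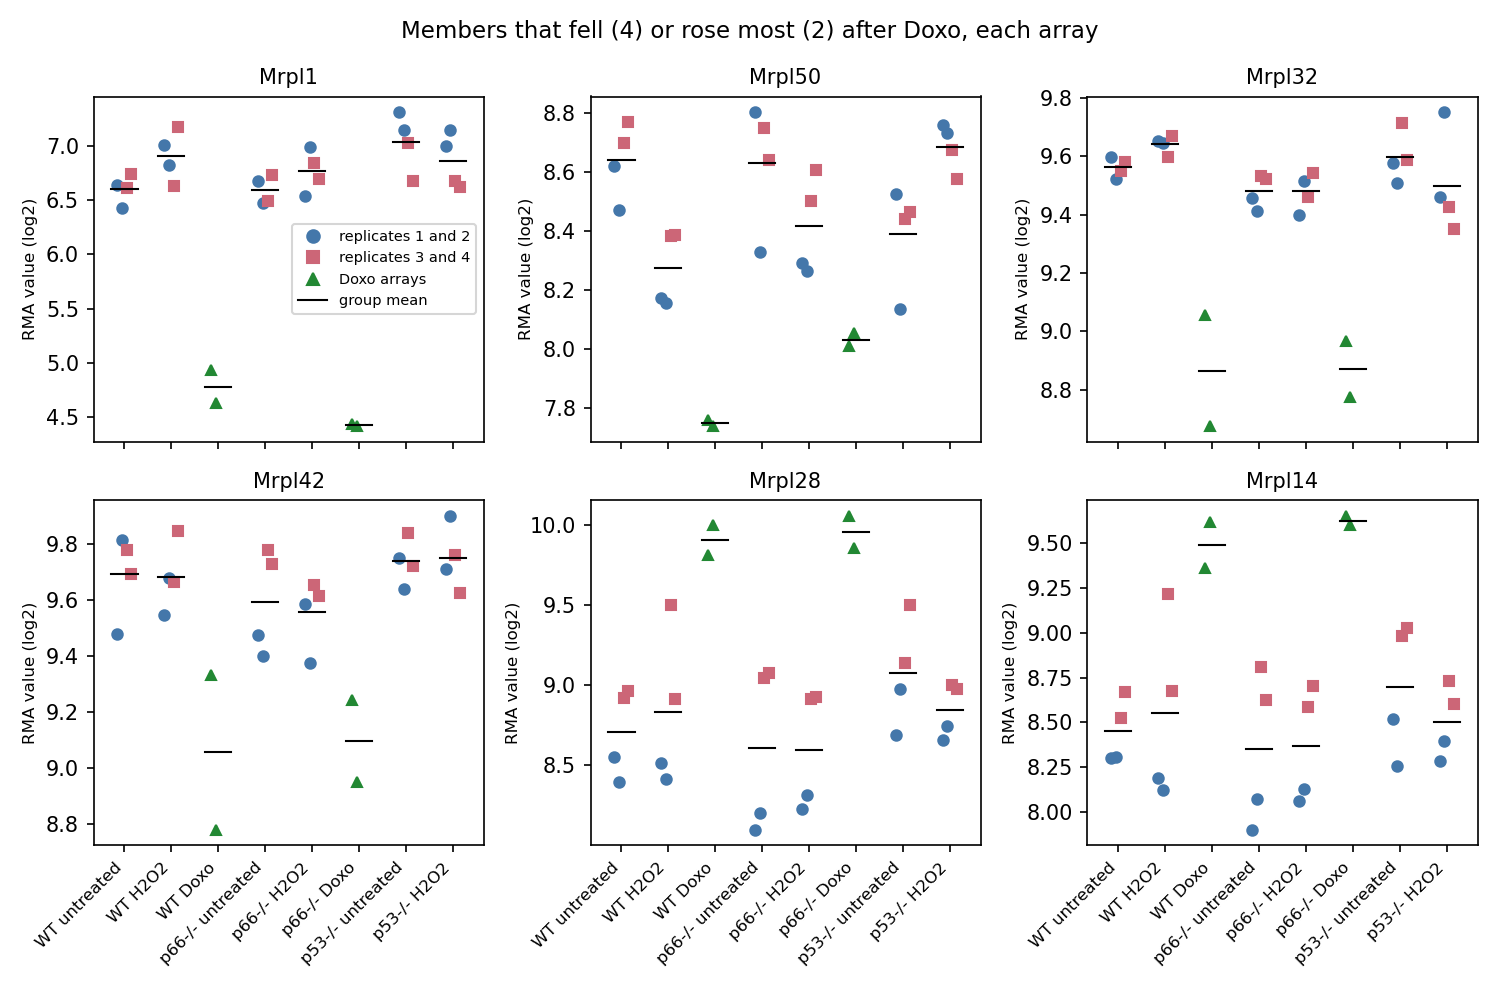
Log2 RMA values on each array (vertical axes, not starting at 0) by group (horizontal axis) for the 4 members that fell after Doxo in both genotypes and for Mrpl28 and Mrpl14, which rose. Circles are replicates 1 and 2, squares replicates 3 and 4, triangles Doxo arrays and black lines group means. For Mrpl1 all Doxo arrays lie between 4.42 and 4.93, below every other array, and for Mrpl28 they lie between 9.81 and 10.06, above every other array.

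Whether the members that fell share sequence near their starts with those that rose was looked at in RefSeq windows of 300 bases, 250 before and 50 after each annotated start, on GRCm38.p6. Of the 73 members 65 were matched by gene ID. The bases just before the start are printed for the 4 members that fell in both genotypes, and for Mrpl9 and Mrps26, the members with the largest WT rises among those that rose in both and hold a searched motif within these bases. Each line gives 100 bases, 5′ to 3′ on the strand of the gene and ending at the base before the start, with complete matches to a searched motif on either strand in capitals.
Mrpl1, chr5:96210015-96210114, plus strand: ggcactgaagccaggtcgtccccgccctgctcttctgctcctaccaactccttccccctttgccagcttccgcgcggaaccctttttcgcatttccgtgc
Mrpl50, chr4:49521084-49521183, minus strand: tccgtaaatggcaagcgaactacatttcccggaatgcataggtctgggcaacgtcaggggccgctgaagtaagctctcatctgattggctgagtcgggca
Mrpl32, chr13:14613038-14613137, minus strand: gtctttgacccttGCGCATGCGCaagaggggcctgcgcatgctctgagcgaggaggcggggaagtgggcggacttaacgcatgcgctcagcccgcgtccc
Mrpl42, chr10:95501950-95502049, minus strand: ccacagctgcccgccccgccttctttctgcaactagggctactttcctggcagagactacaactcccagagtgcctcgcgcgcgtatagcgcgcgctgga
Mrpl9, chr3:94443236-94443335, plus strand: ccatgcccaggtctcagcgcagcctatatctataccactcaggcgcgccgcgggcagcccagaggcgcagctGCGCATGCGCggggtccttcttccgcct
Mrps26, chr2:130563657-130563756, plus strand: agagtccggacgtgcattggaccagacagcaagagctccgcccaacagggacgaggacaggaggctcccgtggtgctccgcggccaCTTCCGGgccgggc

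The motifs searched, on both strands, were that of the transcription factor Nrf1, CCGGAAG, bound by Ets factors such as the mitochondrial gene regulator Gabpa, AAGATGGC, bound by Yy1, and CACGTG, bound by Myc and related factors. In the members' windows the Ets motif was found in 23 of 65 genes (35.4%), the Nrf1 motif in 12 (18.5%), the Yy1 motif in 12 (18.5%) and the CACGTG motif in 4 (6.15%). Of the 13514 genes on the array with a window, 15.1, 8.39, 4.15 and 10.2% held them, respectively. Among the 23 matched genes that rose in both genotypes after Doxo, 8 held the Ets motif, 5 the Nrf1 motif and 4 the Yy1 motif. Among the 4 that fell, none held the Ets motif, Mrpl32 held the Nrf1 motif printed in capitals, and Mrpl32 and Mrpl42 held the Yy1 motif outside the printed bases. Within the printed bases Mrps26 holds an Ets match and Mrpl9 an Nrf1 match, and Mrps26 also holds Nrf1 matches that reach past its start. A match is a run of letters and not a measured binding site, and 4 genes are too few for a comparison.

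After H2O2, few members passed a test, and those that did fell in WT MEFs and mostly rose in the arrays labelled p53-/-. In WT MEFs no member passed the limma test against 3.66% of all probe sets (1 higher and 8 lower at an unadjusted p under 0.05, as were 6.43% and 5.94% of all probe sets). Their median change was -0.021. The replicate numbers were taken to pair the treated with the untreated arrays, and with the number as a block 8 members fell and none rose, where 3.63% of all probe sets fell. These were Mrpl15, Mrpl16, Mrpl18, Mrpl39, Mrpl41, Mrpl46, Mrpl50 and Mrps2, of which Mrpl15, Mrpl16, Mrpl18 and Mrpl39 were named after their values were seen. In p66-/- MEFs no member passed with or without the block (0 higher and 1 lower at an unadjusted p under 0.05, as were 2.27% and 2.14% of all probe sets), against 0.0178% of all probe sets without it. In p53-/- MEFs by the labels no member passed without the block (5 higher and 1 lower at an unadjusted p under 0.05, as were 6.67% and 10.5% of all probe sets), against 4.56% of all probe sets. With it 7 members rose and 2 fell, against 4.47% and 4.70% of all probe sets. The risers were Mrpl16, Mrpl18, Mrpl39, Mrpl41, Mrpl46, Mrpl50 and Mrps2, all of them among the 8 that fell in WT MEFs. With the labels of the p53-/- arrays exchanged and the block, the signs turn by construction, so that these 7 fell. The members' median relative to all probe sets after H2O2 was -0.168 in WT replicates 1 and 2 and 0.064 in replicates 3 and 4.

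**Figure D4:**
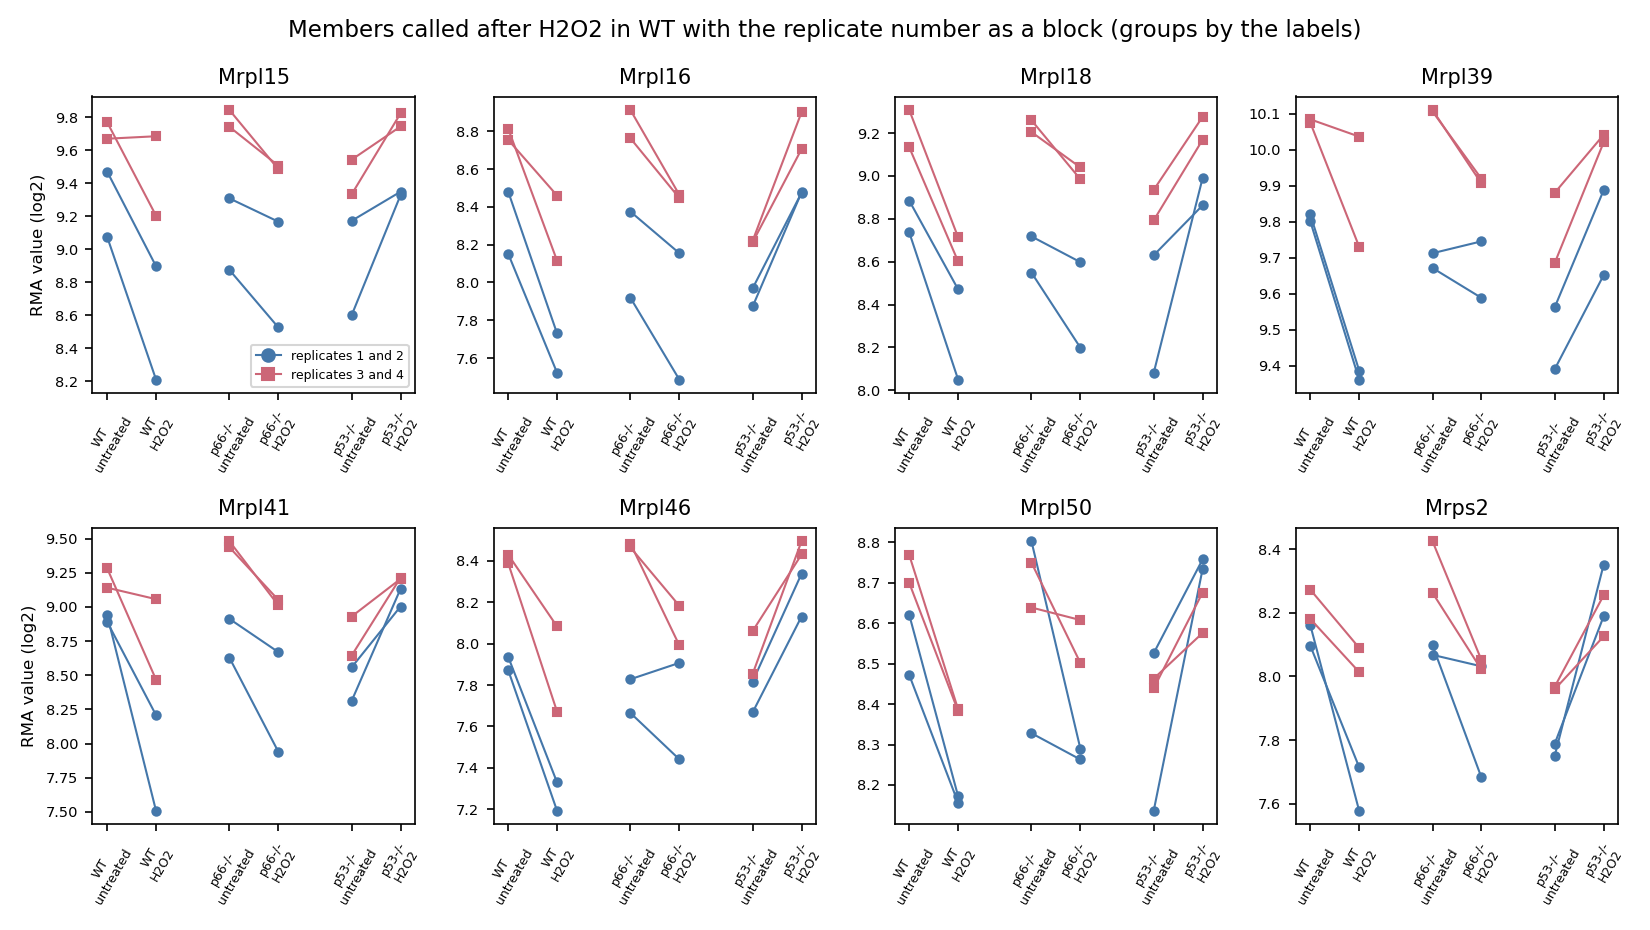
Log2 RMA values (vertical axes, not starting at 0) of the 8 members that fell after H2O2 in WT MEFs with the replicate number as a block, in untreated and H2O2 arrays by the labels (horizontal axis). Lines join arrays of the same replicate number, circles are replicates 1 and 2 and squares replicates 3 and 4. For Mrpl50 and Mrps2 all 4 lines go down in WT and up in p53-/- MEFs.

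Mrpl50 had the lowest p among the members in WT MEFs. It read 8.62, 8.47, 8.70 and 8.77 untreated and 8.17, 8.16, 8.38 and 8.39 after H2O2, so that every treated array lay below every untreated one (two-sided exact permutation p = 0.029, a value that 8 arrays cannot go below). In WT MEFs 3 members lay below in this way and 1 above, as did 3.69% and 4.69% of all probe sets. The change of Mrpl50 was -0.37 (standard error 0.11, limma adjusted p = 0.0532) without the block and passed with it (adjusted p = 0.0128). In p53-/- MEFs it read 8.53, 8.14, 8.44 and 8.46 on arrays labelled untreated and 8.76, 8.73, 8.68 and 8.58 on those labelled H2O2. The values labelled H2O2 lay above the others with no overlap, a difference of 0.30 (adjusted p = 0.121, or 0.0396 with the block) by the labels and of -0.30 with the labels exchanged. By the labels 6 members lay above in this way, as did 4.28% of all probe sets.

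Mrps2 behaved alike on these arrays. In WT MEFs it read 8.16, 8.10, 8.18 and 8.27 untreated and 7.58, 7.72, 8.01 and 8.09 after H2O2, a change of -0.33 (adjusted p = 0.119, or 0.0308 with the block). In p66-/- MEFs it read 8.10, 8.07, 8.26 and 8.43 untreated and 7.68, 8.03, 8.02 and 8.05 after H2O2, again with no overlap, but the change of -0.27 did not pass (adjusted p = 0.999). Mrps2 was the only member that lay below in this way there, as did 1.59% of all probe sets. The arrays labelled p53-/- read 7.79, 7.75, 7.96 and 7.97 untreated and 8.19, 8.35, 8.13 and 8.26 after H2O2, a difference of 0.36 by the labels (adjusted p = 0.0614, or 0.0147 with the block).

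Mrpl46, a mitochondria-specific protein of the large subunit, read 7.94, 7.87, 8.43 and 8.39 untreated and 7.33, 7.19, 8.08 and 7.67 after H2O2 in WT MEFs. The value fell in each of the 4 replicates, while the groups overlapped because replicates 3 and 4 were higher throughout. Its change was -0.59 (adjusted p = 0.132, or 0.00384 with the block). Mrpl41, a large subunit protein also studied as a promoter of cell death and of p53 stability, read 8.89, 8.94, 9.14 and 9.28 untreated and 8.21, 7.51, 9.06 and 8.47 after H2O2 in WT MEFs. The change of Mrpl41 was -0.75 (adjusted p = 0.13, or 0.00588 with the block), -1.06 within replicates 1 and 2 and -0.45 within replicates 3 and 4. The p66-/- arrays changed by -0.45 (adjusted p = 1), and in p53-/- MEFs by 0.53 by the labels (adjusted p = 0.295, or 0.0471 with the block). Without the WT H2O2 replicate 3, Mrpl41, Mrpl44 and Mrpl46 fell in WT MEFs without a block, and without the untreated replicate 2 Mrpl50 did.

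The responses to H2O2 were compared between genotypes by interaction terms. Between p66-/- and WT MEFs none of the members differed (0.00222% of all probe sets), and the median difference of the members was -0.059, with opposite signs within replicates 1 and 2 (0.126) and replicates 3 and 4 (-0.238). Between p53-/- MEFs by the labels and WT MEFs 6 members responded higher, against 5.17% of all probe sets, and none lower, against 5.63%. They were Mrpl41 (1.28, standard error 0.36, adjusted p = 0.0225), Mrpl16 (1.17, adjusted p = 0.0189), Mrpl46 (1.09, adjusted p = 0.0135), Mrpl18 (1.02, adjusted p = 0.026), Mrps2 (0.69, adjusted p = 0.00417) and Mrpl50 (0.66, adjusted p = 0.00412). With the p53-/- labels exchanged no member differed, and the difference of Mrps2 was -0.03. With the block and the labels as given, 8 members responded higher and 7 lower, against 8.56% and 8.72% of all probe sets. The responses to Doxo did not differ between p66-/- and WT MEFs at any member, nor did they at any of the 45037 probe sets (0%), and the members' median difference was 0.084, or 0.234 and -0.07 against untreated replicates 1 and 2 and 3 and 4. The response of p53-/- and the response of WT cells were both measured against untreated arrays of their own genotype.

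Genotypes were compared over untreated and H2O2 arrays together, in equal numbers, so that exchanging the p53-/- labels leaves the value as it is. No member differed between p53-/- and WT MEFs (4 higher and 0 lower at an unadjusted p under 0.05, as were 6.61% and 6.26% of all probe sets), against 1.04% of all probe sets. The median difference was 0.105, against 0.002 for all probe sets. Mrpl35, counterpart of a bacterial large subunit protein, differed by 0.20 (adjusted p = 0.342) and Mrpl49, a mitochondria-specific one, by 0.31 (adjusted p = 0.365). With the replicate number as a block Mrps35, a mitochondria-specific small subunit protein named after its value was seen, was higher by 0.36 (adjusted p = 0.0335), against 2.59% of all probe sets higher. The members' median shift relative to all probe sets was 0.191 in replicates 1 and 2 and 0.011 in replicates 3 and 4. Between p66-/- and WT MEFs none differed either (0 higher and 4 lower at an unadjusted p under 0.05, as were 3.97% and 4.32% of all probe sets), against 0.00444% of all probe sets, with a median of -0.111. Mrpl47 differed by -0.53 (adjusted p = 0.402) and Mrps33, a mitochondria-specific small subunit protein, by -0.16 (adjusted p = 0.509). Mrpl47 lay at 3.20 to 3.62 in all 8 untreated and H2O2 p66-/- arrays and at 3.48 to 4.65 in the WT ones, near the lower end of the array's range, and in replicates 3 and 4 alone it was lower in p66-/- MEFs by 0.85 (adjusted p = 0.0132).

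The subunits gave similar counts and medians, with no test between them. After Doxo in WT MEFs 16 of 46 large subunit genes rose and 4 fell with a median of 0.561, while 12 of 27 small subunit genes rose and none fell with a median of 0.626. Among p66-/- cells 24 large subunit genes rose and 4 fell, and 15 small subunit genes rose and 1 fell. Against untreated replicates 3 and 4 the medians were 0.373 and 0.411 for the large and small subunit in WT and 0.327 and 0.348 in p66-/- MEFs. The 43 members numbered after bacterial ribosomal proteins had 14 rises, 2 falls and a median of 0.550 in WT MEFs, and the 30 others had 14 rises, 2 falls and a median of 0.701. The difference between these subgroups was not tested. The split follows the numbers in the names except for Mrps24, which was placed among the 43 as the counterpart of a bacterial protein. No such exception was made for Mrpl47, which resembles a bacterial protein of another number and is counted with the others.

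Members with known roles outside the ribosome gave the following values. Mrpl12, part of the stalk that recruits translation factors and also a binding partner of the mitochondrial RNA polymerase, spread widely between array sets, from 9.15 and 9.44 in untreated WT replicates 2 and 1 to 9.83 and 9.89 in replicates 3 and 4. It read 10.17 and 10.34 after Doxo in WT MEFs, a difference of 0.68 (adjusted p = 0.206), and 10.34 and 10.29 in p66-/- MEFs, a difference of 0.80 (adjusted p = 0.127). Against replicates 3 and 4 the differences of Mrpl12 were 0.40 (adjusted p = 0.0528) and 0.25 (adjusted p = 0.216). Mrps36, now placed in the oxoglutarate dehydrogenase complex, read 8.92, 8.94, 9.03 and 8.94 in untreated WT MEFs and 9.22 and 9.31 after Doxo. Its difference of 0.31 did not pass in WT MEFs (adjusted p = 0.0988), whereas in p66-/- MEFs, from 8.464, 8.632, 9.046 and 9.001 to 9.38 and 9.34, it rose by 0.57 (adjusted p = 0.00361). Against replicates 3 and 4 the values of Mrps36 were 0.28 (adjusted p = 0.0742) and 0.34 (adjusted p = 0.0428). Mrpl41 read 9.41 and 9.31 after Doxo in WT MEFs, a difference of 0.30 (adjusted p = 0.475), or 0.15 against replicates 3 and 4.

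The other genes of mitochondrial translation were read in the same way, as lists of named genes. Of 16 factors that assemble the mitochondrial ribosome, 9 rose and 3 fell after Doxo in WT MEFs (median 0.650), and 10 rose and 3 fell in p66-/- MEFs (median 0.718). Mrm1, which methylates the large ribosomal RNA, rose by 0.88 (adjusted p = 0.000391) and 1.25 (adjusted p = 8.38e-06). The 3 that fell in both genotypes were Mterf3 (-2.18 and -2.09), Gtpbp10 (-1.60 and -1.61) and Fastkd2 (-1.16 and -1.01), all of which act on the large subunit or its RNA. Ptcd3, a small subunit protein without an Mrp name, fell by 1.38 in either genotype, while Dap3, another, rose by 0.63 and 0.75. Translation factors were mixed, with 2 rises and 1 fall among 9 in WT MEFs, where Tufm, the elongation factor that delivers tRNAs, rose by 0.99 (adjusted p = 0.0065) and Mtif2, an initiation factor, fell by 1.53 (adjusted p = 2.49e-06). Of 15 mitochondrial aminoacyl-tRNA synthetases 4 rose and 4 fell in WT MEFs, among them Vars2 (0.64) and Rars2 (-0.98). After H2O2 2 genes of these lists passed in WT MEFs without a block. Nsun4, a methyltransferase that acts in assembly, fell by 0.84 (adjusted p = 0.0159) and rose by 0.69 in p53-/- MEFs by the labels (adjusted p = 0.0466), which turns to a fall with the labels exchanged. Mtfmt, which formylates the initiator tRNA, fell by 0.82 in WT MEFs (adjusted p = 0.0365).

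Genes of mitochondrial transcription and RNA handling went the other way from most members. Of 10, 7 fell and 2 rose in both genotypes, with a median of -1.098 in WT and -1.208 in p66-/- MEFs. Tfam, which packs and transcribes the mitochondrial genome, fell by 0.93 (adjusted p = 5.85e-06) and Mtpap, the mitochondrial poly(A) polymerase, by 1.49 (adjusted p = 8.25e-06) in WT MEFs. Polrmt, the mitochondrial RNA polymerase, rose by 1.32 and Hsd17b10, a subunit of the enzyme that cuts tRNA 5′ ends, by 0.95. The largest fall among the 10 in WT MEFs was that of Trmt10c, by 3.69 (adjusted p = 7.77e-05). Among 8 nuclear regulators of mitochondrial genes 4 fell in WT MEFs, namely Gabpa (-2.98), Myc (-2.75), Yy1 (-1.14) and Pprc1 (-0.92). Esrra, an orphan nuclear receptor that drives genes of oxidative metabolism, rose by 1.43, and Nrf1 had a difference of -0.23 (adjusted p = 0.527).

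**Figure D5:**
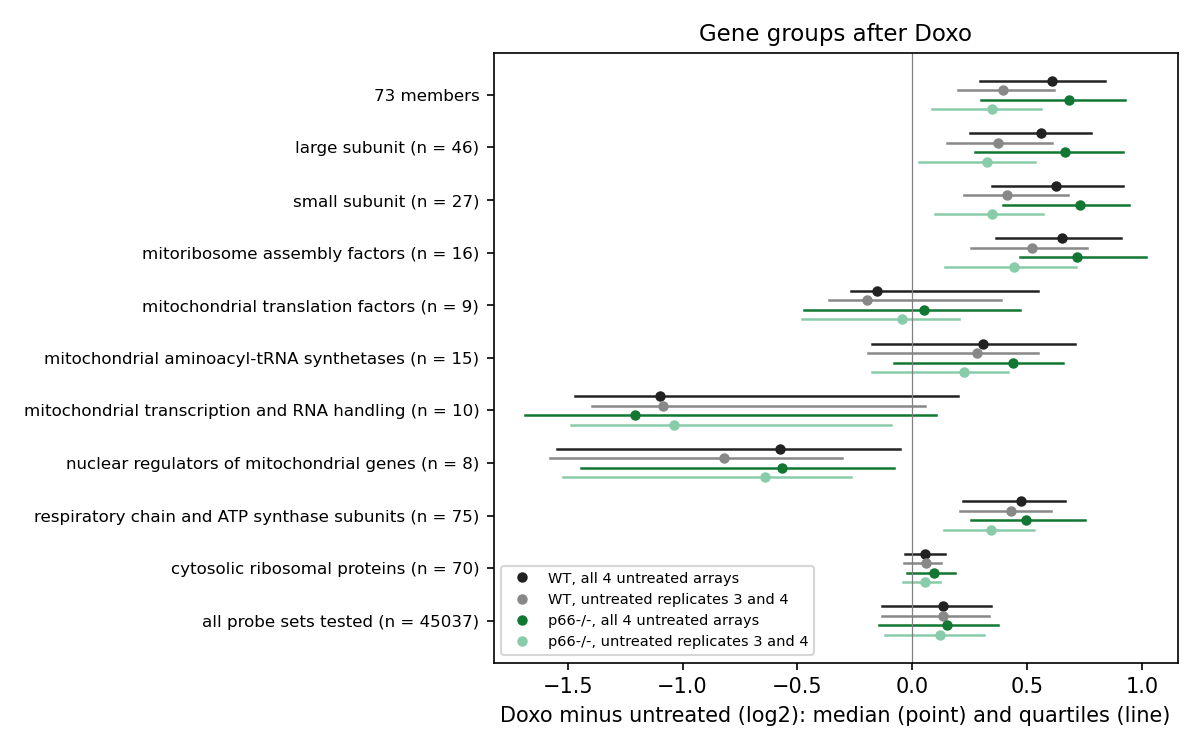
Median (points) and quartiles (lines) of the log2 difference between Doxo and untreated cells (horizontal axis) for the 73 members, their subunits, the other gene lists and all 45037 probe sets (vertical axis), in WT and p66-/- MEFs, against all 4 untreated arrays or replicates 3 and 4 alone. The members' median lies between 0.346 and 0.682, that of mitochondrial transcription and RNA handling below -1 and that of cytosolic ribosomal proteins under 0.1.

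The ribosome of the cytosol and the respiratory chain served for comparison. Of 70 cytosolic ribosomal protein genes 5 rose and 7 fell after Doxo in WT MEFs, with a median of 0.056, and 16 rose and 5 fell in p66-/- MEFs, with a median of 0.094. Their difference between array sets had a median of 0.044, against 0.461 for the members. Of 75 subunits of the respiratory chain and ATP synthase encoded in the nucleus, 43 rose and 3 fell in WT MEFs (median 0.475) and 51 rose and 3 fell in p66-/- MEFs (median 0.496). Uqcrb and Ndufs1, subunits of complexes III and I, fell in WT MEFs (-1.199 and -0.92), as did Atp5j of ATP synthase (-0.39). Their median between array sets was 0.224. Against untreated replicates 3 and 4 the respiratory chain had medians of 0.43 and 0.342 in WT and p66-/- MEFs, and the cytosolic ribosomal proteins of 0.058 and 0.054, with 3 rises and 6 falls in WT and 1 rise and 5 falls in p66-/- MEFs. The assembly factors had medians of 0.521 and 0.442 on this basis, and mitochondrial transcription and RNA handling of -1.085 and -1.037. These lists are set beside the members as counts and medians, and no test of the lists against each other was made. After H2O2 the only call in either list in WT MEFs was Rpl7l1, listed with the cytosolic proteins, which fell by 0.78 (adjusted p = 0.00381) and rose by 0.62 in p53-/- MEFs by the labels (adjusted p = 0.0196).

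The member genes had 56 other probe sets. After Doxo in WT MEFs 17 of them rose and 4 fell, where 21.9% of all probe sets rose and 13.0% fell. In p66-/- MEFs 17 rose and 3 fell, where 26.6% of all probe sets rose and 14.1% fell. In 14 cases in WT MEFs both the chosen and the other probe set were called in the same direction, in 7 only the chosen and in 6 only the other. Mrpl42 was the 1 gene called in opposite directions, since its other probe set, at 2.911 to 3.032 in untreated WT MEFs and 3.230 and 3.289 after Doxo, rose by 0.30 (adjusted p = 0.00876). These values lie near the bottom of the array's range, which starts at 1.953. A second probe set of Mrpl1 fell by 0.93 in WT (adjusted p = 0.0065) and by 1.19 in p66-/- MEFs (adjusted p = 0.000775). A probe set of Mrpl35 fell by 0.58 after Doxo (adjusted p = 0.00367) and by 0.42 after H2O2 (adjusted p = 0.0435) in WT MEFs, where the chosen one had differences of -0.12 and 0.03. The probe set that fell is also a low one, with a mean of 4.058 over all arrays, below the lowest array median of 4.352. Of Mrps2 the other probe set fell after Doxo in WT MEFs, by 0.50 (adjusted p = 0.0286).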

How the data were processed

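RNA of 28 samples in 8 groups was hybridized to Affymetrix array strips, which hold several short probes for each transcript. Per the submitters' processing notes the values came from RMA and Partek 6.5. The authors deposited them on the log2 scale, and they were used as they are. The genome build is not given in the sources used here. RMA brings the arrays to a common distribution, so that a change shared by most genes would not be seen. Precision depends on how many arrays a group has.

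Of 45141 probe sets 104 controls were left out. Gene symbols came from the platform annotation. limma 3.58.1 in R 4.3.3 fitted the 8 group means, and p-values were adjusted by Benjamini and Hochberg over all 45037 probe sets and called under 0.05. The script was tested on simulated data. Members and lists were chosen with earlier results of these data known.

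Named members are, for each comparison, the 4 largest falls and 3 largest rises among those called, all where 5 or fewer were called, the 2 with the lowest p where none was, up to 3 for each interaction, those with another probe set called in the opposite direction, and Mrpl12, Mrpl41 and Mrps36. Of the other lists they are up to 2 with the lowest adjusted p and those called against the majority; further names were chosen after their values were seen.

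Deviations from the group means correlated between same-numbered untreated and H2O2 arrays at 0.51 to 0.75, values to which the array sets can add. Each H2O2 array correlated best with the untreated array of its own number, except p66-/- H2O2 replicates 3 and 4. Those correlated best with each other's untreated number. On this basis the numbers were taken to pair the untreated and H2O2 arrays. For Doxo the correlations were -0.08 to 0.05, and the numbers do not pair them. Promoters came from RefSeq. No arrays of a group agreed within noise, the smallest SD of a difference between 2 arrays being 0.156.

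Alternatives were a linear model without moderated spread, a fit to only those groups being compared, a filter on the 40% of probe sets with the lowest means, further quantile normalization, centring of arrays, the replicate block, each array set alone, each array left out, the mean over probe sets of a gene, the study's thresholds and exchanged p53-/- labels. Doxo against single array sets, the comparison of the array sets and the exchanged labels with the block were added after the values were seen.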

Additional observations from a re-analysis of the deposited data

Results flagged for a closer look

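On 3 of 114 groups of 4 arrays of the named members and of the members' median, 1 array lay far from the other 3 by Dixon's criterion, which chance meets in about 1 of 20 groups. Mrps2 read 7.68 in p66-/- H2O2 replicate 1 and 8.02 to 8.05 in the other 3 replicates. Mrpl49 read 7.72 in p66-/- H2O2 replicate 2 and 8.27 to 8.35 in the others. Mrps36 read 9.03 in untreated WT replicate 3 and 8.92 to 8.94 in the others.

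The H2O2 response differed between p53-/- MEFs, by the labels, and WT MEFs at 6 members, by the limma interaction term. The log2 differences were 1.28 for Mrpl41, 1.17 for Mrpl16, 1.09 for Mrpl46, 1.02 for Mrpl18, 0.69 for Mrps2 and 0.66 for Mrpl50. With the labels of the p53-/- arrays exchanged none of them differed.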

How the results depend on the processing

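Mrpl1, Mrpl50 and Mrpl32 fell after Doxo in both genotypes under every alternative run, while Mrpl42 lost its call without Doxo replicate 2 of either genotype, by gene means in WT MEFs (-0.17), and in p66-/- MEFs in the compared groups alone (adjusted p = 0.0551) and against untreated replicates 1 and 2 (-0.34). The members' median shift relative to all probe sets moved by less than 0.33 in every comparison. That value is the pooled SD within groups of the members' median per array, which includes the difference between the array sets. It is a wide bound, within which the H2O2 and genotype shifts can change sign. After Doxo the shift lay between 0.26 and 0.71 in WT and between 0.22 and 0.82 in p66-/- MEFs. Counts of called members moved more. Some counts have no share of all probe sets beside them, here or in the text above. Such a count cannot be set against all probe sets and is no result about the members. Doxo in WT MEFs called 32 members, 65 with the replicate block (33.3% of all probe sets rose and 17.9% fell there), 59 against untreated replicates 1 and 2 (21.2% and 13.7%), and 5 to 36 with 1 array left out: 5 without WT Doxo replicate 2 (Mrpl1, Mrpl32 and Mrpl50 down, Mrpl34 and Mrpl38 up), 16 without Doxo replicate 1 and 20 without untreated replicate 2. Doxo in p66-/- MEFs called 44 members, 23 in the compared groups alone, and 19 to 48 with 1 array left out: 19 without either Doxo array and 29 without untreated replicate 1. Further quantile normalization gave 33 rises and 4 falls in WT and 44 and 4 in p66-/- MEFs, and moved the median of all probe sets from 0.134 to 0.095 and from 0.152 to 0.101.

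H2O2 in WT MEFs called 0 members, 8 with the replicate block, 3 in replicates 3 and 4 alone (Mrpl23 up, Mrpl16 and Mrpl18 down), 3 by the study's thresholds (Mrpl16, Mrpl41, Mrpl46), 1 without the lowest 40% of probe sets (Mrpl50), 1 by gene means (Mrps2) and 0 to 3 with 1 array left out. H2O2 in p53-/- MEFs by the labels called 0, 9 with the block (9 also with the labels exchanged and the block), 3 in replicates 3 and 4 alone (Mrpl16 up, Mrpl23 and Mrpl47 down), and Mrps2 as 1 with centred arrays and 1 by gene means. With the labels exchanged the differences of Mrps2 and Mrpl50 became -0.36 and -0.30. The p53-/- interaction called 6, 15 with the block, 1 in replicates 1 and 2 alone (Mrps2), 14 in replicates 3 and 4 alone, 0 with the labels exchanged with or without the block, where Mrps2 was at -0.03, Mrpl50 at 0.07 and Mrpl46 at 0.09, and 4 to 9 with 1 array left out. p53-/- against WT called 1 with the block (Mrps35), and p66-/- against WT 2 in replicates 3 and 4 alone (Mrpl9 and Mrpl47, lower). With 1 array left out, H2O2 in p53-/- and p66-/- MEFs, both genotype comparisons and the other interactions called 0 to 0. The median shift ranged over these from 0.37 to 0.55 for Doxo in WT, 0.42 to 0.63 in p66-/-, -0.17 to 0.06 for H2O2 in WT, -0.20 to 0.02 in p66-/-, -0.07 to 0.06 in p53-/-, 0.04 to 0.19 for p53-/- and -0.14 to -0.02 for p66-/- against WT. With the block, Doxo in p66-/- MEFs called 66 members (36.7% and 18.9% of all probe sets rose and fell). The difference between the array sets enters this count too. H2O2 in p66-/- MEFs, p66-/- against WT and the other interactions called 0 with the block. The cause of these shifts was not tested.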
